A study of Mus musculus with 8 samples.

Results

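The 10 genes described here encode enzymes and recruitment factors of DNA methylation and of repressive methylation of histone H3 at lysines 9 and 27 (H3K9 and H3K27). They were chosen by symbol: Dnmt1, Uhrf1, Dnmt3a, Dnmt3b, Tet1, Tet2, Tet3, Ezh2, Setdb1 and Trim28. All 10 were found among the 34478 gene symbols of the deposited table, and all 10 passed the filter on low values, a mean of at least 10 normalized counts, which kept 15888 genes.

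DNA methylation at CpG dinucleotides is copied after each round of replication by Dnmt1, which Uhrf1 brings to hemimethylated DNA. New methylation is set by Dnmt3a and Dnmt3b, and the Tet dioxygenases oxidise 5-methylcytosine, which opens the way to its loss. Ezh2 is the catalytic subunit of Polycomb repressive complex PRC2 and methylates H3K27, whereas Setdb1 trimethylates H3K9 where it is recruited by the corepressor Trim28, chiefly at retroelements. In pancreatic ductal adenocarcinoma (PDAC), as in other carcinomas, these systems keep genes and transposable elements silent, and several of the enzymes are made mostly in dividing cells.

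RNA was sequenced from 4 primary murine PDAC lines, numbered #1, #3, #5 and #10, each with 1 library after DMSO, the vehicle, and 1 after trametinib, an inhibitor of the kinases MEK1/2 (MEKi). All lines came from pancreatic tumors of genetically engineered mice with the alleles Ptf1awt/Cre and Trp53loxP/loxP, in which Cre made from the Ptf1a locus, active in pancreatic progenitors and acinar cells, deletes Trp53. DMSO controls therefore carry the same alleles as treated cells. Trametinib was given for 48 h at each line's own IC50, so the dose may differ between lines. The replicates are separate tumor-derived lines, and p-values rest on the spread between these 4 lines. In the limma fit across genes, the spread of each gene was drawn toward a trend over all genes tested. Its SEs, intervals and p-values therefore do not reflect the gene's own 4 lines alone. Ages of the mice are not given in the labels.

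Library totals were 30680091 to 36385719 normalized counts, from about 29400000 to 46100000 reads. A floor of 3 reads corresponded to 2.32 to 3.71 normalized counts. Of 9 ductal epithelial markers, 8 passed the filter and their list summed to 231020 to 353460 normalized counts in DMSO and 120030 to 232660 in trametinib. Of the 8, 6 were called lower and 1 higher, with log2 changes of -1.49 for Sox9, -0.97 for Krt7, -0.93 for Muc1 and 4.61 for Cldn4. Cdh1 (E-cadherin), the 1 not called, had a mean of 24588 normalized counts in DMSO and 24100 in trametinib, whereas Epcam, another epithelial marker, was listed at 0 in lines #1, #5 and #10 under both treatments and reached 10.4 in line #3. The sums of other cell types were far lower: 84.4 to 354 in DMSO and 417 to 1245 in trametinib for 8 fibroblast markers, 1075 to 2658 and 1242 to 3727 for 7 leukocyte markers, 35.3 to 74.7 and 62.0 to 974 for 4 endothelial markers, and 36.4 to 253 and 26.2 to 131 for 6 acinar markers. Col1a1 made up most of the fibroblast sum in trametinib and rose by 3.60 on the log2 scale (adjusted p = 0.000872). The endothelial marker Vwf rose by 2.14 (adjusted p = 0.0435), and in line #3 it went from 27.4 normalized counts in DMSO to 948 in trametinib. The part of any of these markers in the results on silencing genes was not tested.

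Dnmt1, Uhrf1, Setdb1, Trim28 and Ezh2 fell upon trametinib treatment, while Dnmt3a, Tet2 and Tet3 rose. The calls of Setdb1, Tet2 and Tet3 were lost without the block for cell line, and that of Ezh2 there and in other settings. In limma's fit across all genes, in which the line served as a block (Benjamini-Hochberg adjusted p throughout), 5 of the 10 genes were called lower, against 25.6% of all 15888 genes tested, and 3 were called higher, against 27.3% of all genes. Dnmt3b and Tet1 did not pass the threshold of 0.05. The values of the groups did not overlap in 3 of the lower genes, Dnmt1, Uhrf1 and Setdb1, against 16.2% of all genes in that direction, and in 1 of the higher genes, Dnmt3a, against 15.1% of all genes. The median log2 change of the 10 was -0.40 and that of all genes tested was 0.07. Rescaling the libraries to equal totals moved the median of all genes to 0.20, so changes are read against that shift where it matters.

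**Figure D1:**
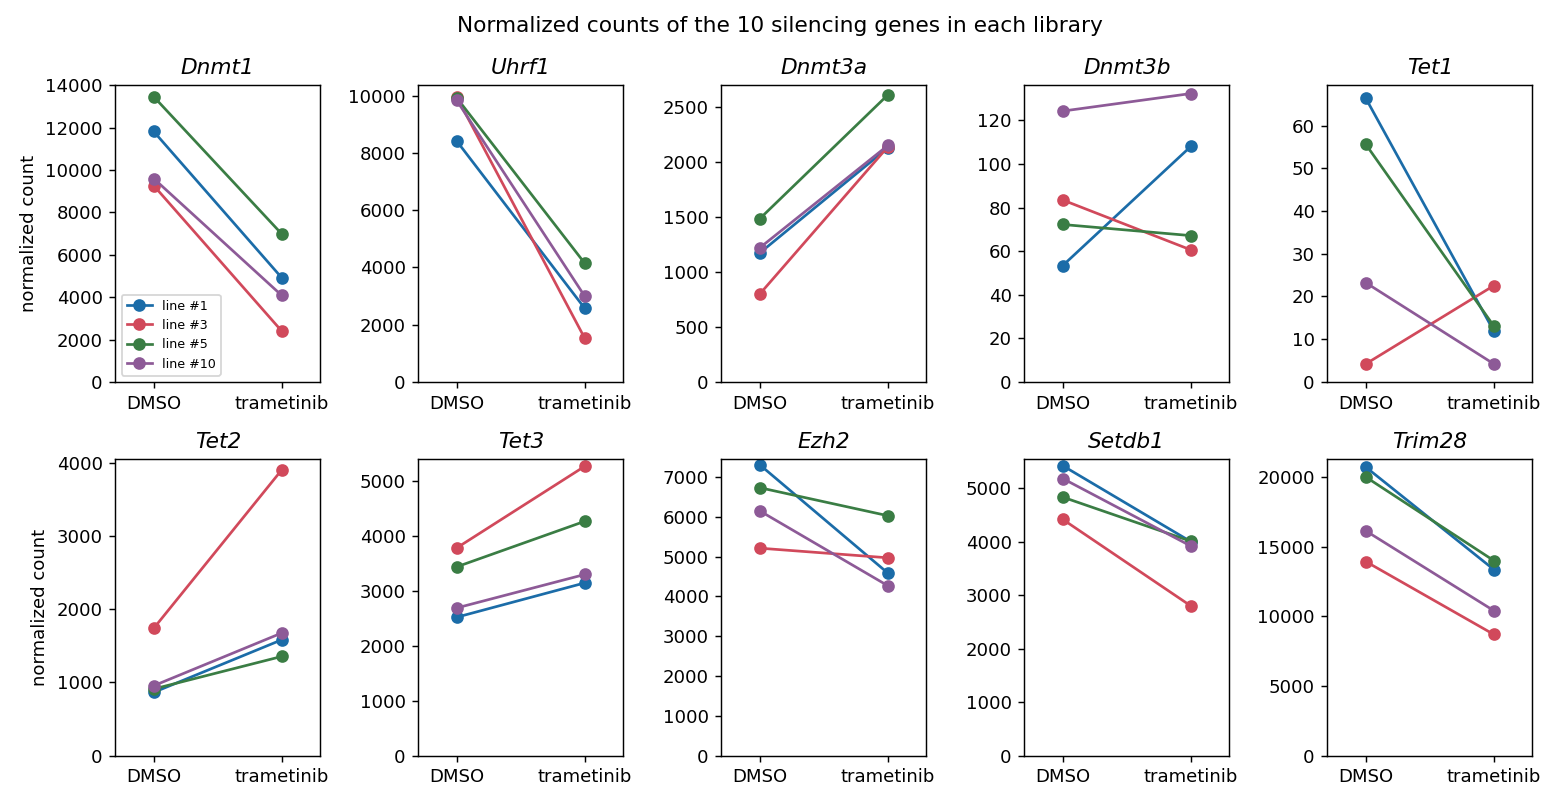
Normalized counts (linear axis from 0, a scale of its own in each panel) of the 10 genes in DMSO and trametinib libraries, with each coloured line joining both libraries of a cell line. Dnmt1, Uhrf1, Setdb1 and Trim28 slope down and Dnmt3a, Tet2 and Tet3 slope up in all 4 lines, Ezh2 slopes down least in line #3, and the lines of Dnmt3b and Tet1 cross.

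Maintenance methylation showed the largest falls among the called genes of the 10. Tet1, which was not called, fell by more than Uhrf1 in lines #1, #5 and #10 and rose in line #3. Uhrf1 was measured at 8418, 9955, 9928 and 9836 normalized counts in DMSO-treated lines #1, #3, #5 and #10, and at 2567, 1521, 4142 and 2989 in the same lines after trametinib. The groups lay far apart, and treated cells of line #3 held 15.3% of their own control level, the smallest share of the 4 lines. On the log2 scale Uhrf1 fell by 1.85 (SE 0.22, adjusted p = 0.000907, lower in 4 of 4 lines). Because these are bulk libraries, fewer cycling cells and less RNA per cell cannot be told apart.

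Dnmt1, the maintenance methyltransferase itself, stood at 11824, 9272, 13467 and 9602 normalized counts in the DMSO libraries of lines #1, #3, #5 and #10. With trametinib the corresponding levels were 4913, 2396, 6982 and 4080. Every treated value lay below every control value, and treated cells kept 25.8% of the control level in line #3 and 51.9% in line #5. Dnmt1 fell by 1.35 on the log2 scale (SE 0.16, adjusted p = 0.000946).

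The S-phase list of 18 replication and proliferation genes was set beside these falls, since Dnmt1, Uhrf1 and Ezh2 are known to vary with the cell cycle. All 18 of its genes fell, with log2 changes of -2.16 for Tk1 (thymidine kinase), -1.99 for Cdc6 (origin licensing) and -1.85 for Mcm5 (replicative helicase). Its median change per line was -1.23 in line #1, -2.40 in line #3, -1.12 in line #5 and -1.33 in line #10, so line #3 was lowest here too. Within lines, the change of Uhrf1 minus the list median was -0.33 ± 0.15 log2 units (SD, n = 4), below 0 in 4 of 4 lines, with an exact two-sided sign-flip p of 0.13, the smallest that 4 lines allow. Dnmt1 lay 0.17 ± 0.21 (SD, n = 4) above the list median, in 3 of 4 lines, with an exact p of 0.25. The other falling genes lay further above it in all 4 lines, Ezh2 by 1.17 ± 0.80, Setdb1 by 1.08 ± 0.45 and Trim28 by 0.91 ± 0.55 (SD, n = 4 each), again at the smallest exact p of 0.13 among the 10 such comparisons made. The share of cells in S phase was not measured, and its part in the changes of these genes was not tested.

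**Figure D2:**
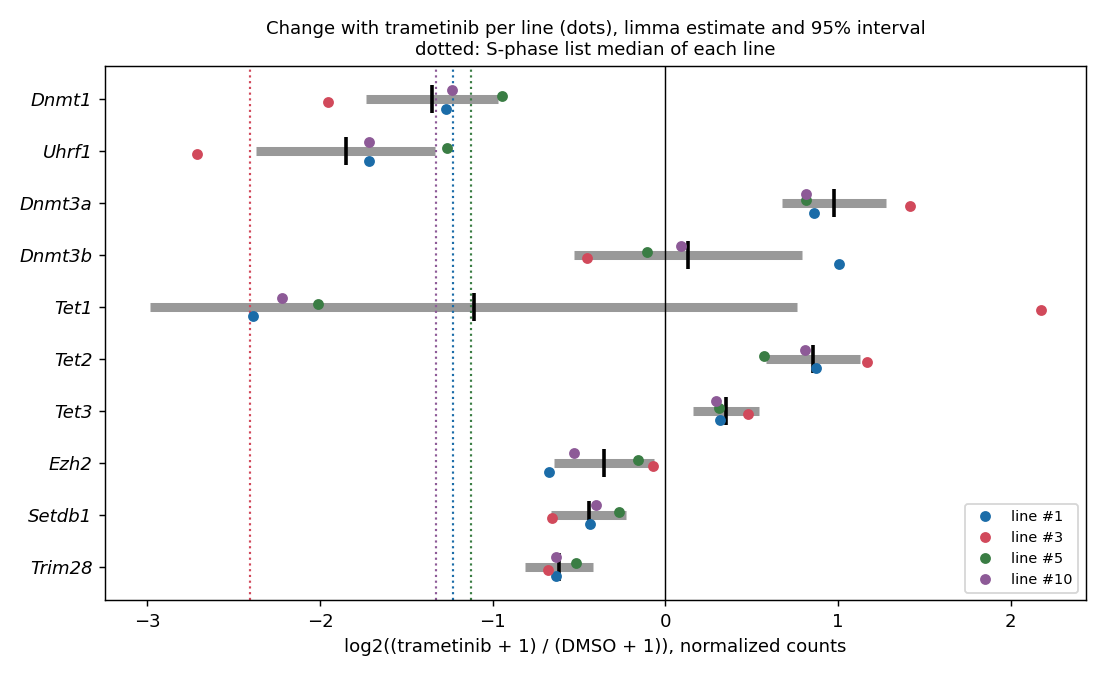
Change of each gene with trametinib on the horizontal axis, as log2((trametinib + 1) / (DMSO + 1)) of normalized counts, with a dot per line, a black tick for the limma estimate, a grey bar for its 95% interval and dotted lines for the S-phase list median of each line. Line #3 is lowest in Dnmt1 and Uhrf1 (-1.95 and -2.71), as among the dotted lines, whereas in Tet1 line #3 stands at 2.18 and the other lines at -2.39 to -2.01.

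Start-site sequences are shown because 5 of the 10 genes moved in the same direction as the S-phase list, whose genes are classical targets of E2F transcription factors. Windows of 300 bases (250 before and 50 after a RefSeq start site, build GRCm38.p6) were available for all 10 genes, 15 windows in all, and were searched on both strands for the E2F-type motifs TTTCCCGC, TTTCGCGC, TTTGCCGC and TTTGGCGC. A match was found for 3 of the 10 genes, Dnmt1, Uhrf1 and Ezh2, and the 4 matches did not overlap each other. Setdb1 and Trim28, which fell as well, had no match in their windows. For comparison, 744 of all 32851 windows (2.26%) held a match, as did 482 of the 10908 tested genes that had a window (4.42%) and 7 of the 15 S-phase genes that had one (46.7%). Capitals mark the matches as read on the gene's strand, 5′ to 3′. They lie at chr9:20952574-20952873 (minus strand) for Dnmt1, with GCGCGAAA, the reverse complement of TTTCGCGC, beginning 219 bases before and TTTGGCGC at base 34 after the start, at chr17:56304063-56304362 (plus strand) for Uhrf1, 185 bases before the start, and at chr6:47594981-47595280 (minus strand) for Ezh2, at base 4 after the start. For Dnmt3a, a gene that rose, the first of 3 windows is given, at chr12:3806730-3807029 (plus strand). None of its 3 windows holds a match, and they hold 46, 47 and 18 CpG dinucleotides, against 33 in the Dnmt1 window shown and a median of 7 over all windows.
Dnmt1: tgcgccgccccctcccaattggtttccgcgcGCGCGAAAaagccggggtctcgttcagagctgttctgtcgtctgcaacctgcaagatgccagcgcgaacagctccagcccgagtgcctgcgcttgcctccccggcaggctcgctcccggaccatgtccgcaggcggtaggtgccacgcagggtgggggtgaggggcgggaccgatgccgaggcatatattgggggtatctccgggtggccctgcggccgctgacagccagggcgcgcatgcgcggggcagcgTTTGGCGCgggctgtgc
Uhrf1: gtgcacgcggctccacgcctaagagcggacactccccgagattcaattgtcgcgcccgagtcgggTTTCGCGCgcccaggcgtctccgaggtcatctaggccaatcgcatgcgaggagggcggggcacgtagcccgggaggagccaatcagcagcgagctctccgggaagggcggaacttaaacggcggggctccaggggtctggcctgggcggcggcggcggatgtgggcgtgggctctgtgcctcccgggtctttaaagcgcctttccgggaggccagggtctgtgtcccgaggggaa
Ezh2: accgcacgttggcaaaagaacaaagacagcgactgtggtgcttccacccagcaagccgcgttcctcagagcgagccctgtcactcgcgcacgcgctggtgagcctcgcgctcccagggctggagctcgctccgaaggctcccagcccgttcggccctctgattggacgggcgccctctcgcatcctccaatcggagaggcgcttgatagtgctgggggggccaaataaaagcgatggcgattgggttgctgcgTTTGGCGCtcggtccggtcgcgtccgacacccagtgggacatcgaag
Dnmt3a: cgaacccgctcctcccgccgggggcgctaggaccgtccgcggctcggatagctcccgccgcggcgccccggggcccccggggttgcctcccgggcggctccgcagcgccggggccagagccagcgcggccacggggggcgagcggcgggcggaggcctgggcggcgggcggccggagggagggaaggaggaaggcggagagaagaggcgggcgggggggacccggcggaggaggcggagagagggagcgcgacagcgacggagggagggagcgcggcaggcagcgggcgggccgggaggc

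A match is a description of these windows, and binding of a factor was not measured. Dnmt1 has 3 RefSeq start windows and Uhrf1 has 2, of which 1 each held a match, and the libraries do not show which start was used. In GENCODE M21, Dnmt1 spans chr9:20907209-20959888 and Uhrf1 spans chr17:56303321-56323486, and no exon of another gene overlaps theirs on either strand.

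Of the de novo methyltransferases, Dnmt3a was called higher and Dnmt3b was not called. Dnmt3a was measured at 1173, 799, 1484 and 1219 normalized counts in DMSO-treated lines #1, #3, #5 and #10 and at 2129, 2139, 2611 and 2151 after trametinib. All 4 treated values lay above all 4 controls, and line #5 was highest in both groups, while line #3, lowest in DMSO, was level with lines #1 and #10 after treatment. Dnmt3a rose by 0.98 on the log2 scale (SE 0.13, adjusted p = 0.00122), with line #3 rising most (1.42, against 0.81 to 0.86 in the others). Exons of Dnmt3a overlap the opposite-strand transcript Dnmt3aos, and whether the authors' counting used strand is not given in the sources used here.

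Dnmt3b, its paralog with a preference for pericentromeric repeats, was low throughout. Its DMSO levels were 53.4, 83.5, 72.2 and 124 normalized counts and its trametinib levels 108, 60.6, 67.1 and 132 in lines #1, #3, #5 and #10, which is about 58 to 138 reads a library. The groups overlapped, with 2 lines higher and 2 lower after treatment. The log2 change was 0.13 with a 95% interval of -0.53 to 0.79 (adjusted p = 0.705), and its sign turned under quantile normalization (-0.35) and without line #1 (-0.16). A change within these bounds was not detectable with 4 lines. Dnmt3l, the catalytically inactive cofactor of both enzymes, was listed at 0 in all 8 libraries.

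The ratio of Dnmt1 to Dnmt3a transcripts was lower after trametinib in all 4 lines. Per kilobase of the principal transcript, Dnmt1 stood at 18.2, 20.9, 16.4 and 14.2 times the Dnmt3a level in DMSO-treated lines #1, #3, #5 and #10 and at 4.16, 2.02, 4.83 and 3.42 times after trametinib. The groups of ratios did not overlap, and Dnmt1 remained the more abundant transcript in every library. Within lines the change of Dnmt1 was 2.33 ± 0.71 (SD, n = 4) log2 units below that of Dnmt3a, in 4 of 4 lines, with an exact sign-flip p of 0.13 (0.175 adjusted over the 7 pairs compared, and the smallest value that 4 lines allow). For Dnmt3b against Dnmt3a the difference was -0.84 ± 0.83 (SD, n = 4), below 0 in 3 of 4 lines, with an exact p of 0.25 (0.25 adjusted). In line #1 that difference was 0.14, where the log2 changes were 1.00 for Dnmt3b and 0.86 for Dnmt3a.

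Uhrf1 was also set beside its paralog Uhrf2. Uhrf2 binds hemimethylated DNA too but is not known to replace Uhrf1 in maintenance, and its mean was 4883 normalized counts in DMSO and 4371 in trametinib (log2 change -0.16, 95% interval -0.35 to 0.03, adjusted p = 0.135). Per kilobase, Uhrf1 was the more abundant transcript in the DMSO libraries, at 1.53, 2.08, 2.19 and 1.97 times Uhrf2 in lines #1, #3, #5 and #10. After trametinib the ratio was 0.506, 0.373, 0.945 and 0.713, so the order was turned in all 4 lines. The change of Uhrf1 lay 1.69 ± 0.55 (SD, n = 4) log2 units below that of Uhrf2, in 4 of 4 lines (exact p = 0.13, 0.175 adjusted over the 7 pairs).

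**Figure D3:**
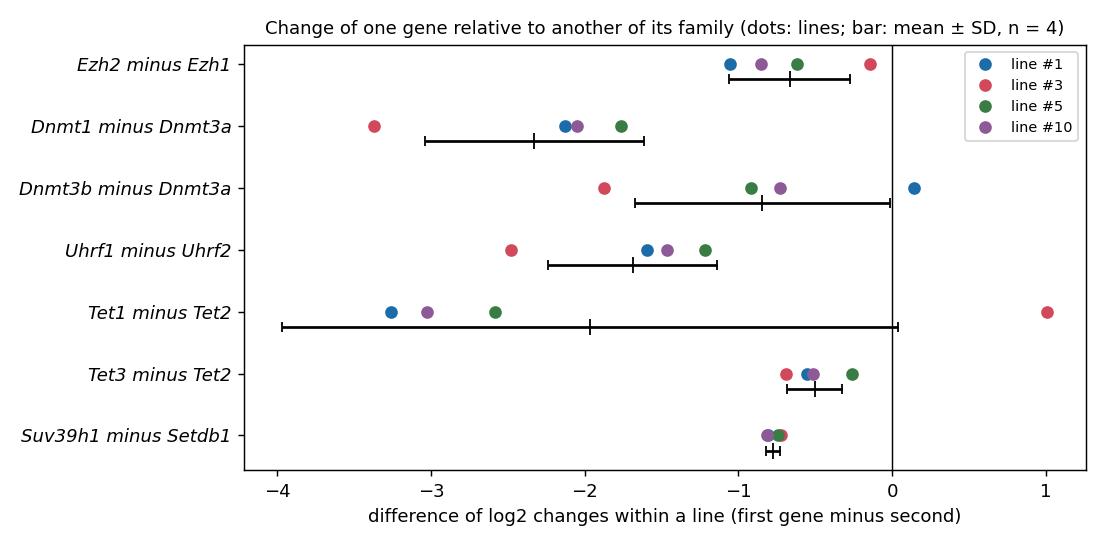
Difference of log2 changes between members of 7 pairs within each line (horizontal axis, first gene minus second; dots are lines, bars the mean ± SD of the 4 lines). All 4 dots lie below 0 for Ezh2 minus Ezh1, Dnmt1 minus Dnmt3a, Uhrf1 minus Uhrf2, Tet3 minus Tet2 and Suv39h1 minus Setdb1, whereas 1 line lies above 0 in each pair with Dnmt3b or Tet1.

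Among other genes that act on or read DNA methylation, 8 of 14 tested fell (57.1%, against 25.6% of all genes), 3 rose (21.4%, against 27.3%) and 3 were not called, with a median log2 change of -0.43. Those that fell most assist maintenance on packed chromatin or during replication: the remodeller Hells fell by 1.66 (adjusted p = 0.000863), its activator Cdca7 by 1.47 (adjusted p = 0.000522) and the related Cdca7l by 1.25 (adjusted p = 0.00052) on the log2 scale. Hells held 7440, 7551, 10463 and 8862 normalized counts in DMSO and 2436, 1437, 4798 and 3105 in trametinib in lines #1, #3, #5 and #10, with line #3 again lowest after treatment. Those that rose were readers of methylated DNA, Zbtb4 by 1.71 (adjusted p = 0.000218), Zbtb38 by 1.18 (adjusted p = 0.00467) and Mbd1 by 0.28 (adjusted p = 0.0259). Only 2 genes of the list were called higher without the block for cell line, without line #5 or without line #10. The same number was called higher after centring on the median, with no filter and without the eBayes trend. Zbtb4 was held within 544 to 598 normalized counts in the DMSO libraries and reached 1629 to 2191 in trametinib.

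Of the Tet genes, Tet2 and Tet3 were called higher and Tet1 was not called. Tet2 was measured at 865, 1740, 911 and 955 normalized counts in DMSO-treated lines #1, #3, #5 and #10 and at 1584, 3906, 1356 and 1676 after trametinib. It rose within each line, but line #3 stood above the others under both treatments and its control value exceeded 3 of the 4 treated values, so the groups overlapped. The log2 change was 0.86 (SE 0.12, adjusted p = 0.00136), and 0.102 was the adjusted p without the block for cell line. Exons of Tet2 overlap the opposite-strand gene Gm42567.

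Tet3 was the most abundant Tet transcript per kilobase. It stood at 2525, 3788, 3444 and 2694 normalized counts in DMSO and at 3151, 5278, 4274 and 3305 in trametinib in lines #1, #3, #5 and #10. The groups overlapped because lines #3 and #5 began above the treated values of lines #1 and #10, while the rise within a line was narrow in range, 0.29 to 0.48 on the log2 scale. Tet3 rose by 0.35 (SE 0.08, adjusted p = 0.00981; adjusted p = 0.235 without the block). It rose by less than Tet2 in 4 of 4 lines, by 0.50 ± 0.18 log2 units (SD, n = 4; exact p = 0.13, 0.175 adjusted over the 7 pairs), and the Tet3 to Tet2 ratio per kilobase went from 3.36 to 5.84 in DMSO to 2.09 to 4.87 in trametinib.

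Tet1 was low, and near the floor of 3 reads in the control of line #3 and in treated line #10. Its DMSO levels were 66.4, 4.21, 55.6 and 23.2 normalized counts in lines #1, #3, #5 and #10, about 86, 4, 45 and 24 reads, and its trametinib levels were 11.9, 22.5, 13.1 and 4.21, about 12, 24, 16 and 4 reads. It was lower after treatment in lines #1, #5 and #10 and higher in line #3, whose control value was as low as any treated one. The log2 change was -1.11 with a 95% interval of -2.99 to 0.77 (adjusted p = 0.272), so no call was made, and without line #3 it was -2.21 (adjusted p = 0.00234). Against Tet2 the change of Tet1 differed by -1.97 ± 2.0 (SD, n = 4; exact p = 0.25, 0.25 adjusted), again with line #3 on the other side of 0.

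The fall of Ezh2 was small and its call depended on the analysis. It was measured at 7306, 5210, 6729 and 6147 normalized counts in DMSO-treated lines #1, #3, #5 and #10 and at 4585, 4969, 6026 and 4268 after trametinib. All 4 lines were lower after treatment, yet lines #3 and #5 kept 95.4% and 89.5% of their control level and the groups overlapped. The log2 change was -0.36 (SE 0.12, adjusted p = 0.0443). That call was lost when libraries were rescaled to equal totals (-0.23, adjusted p = 0.16), after quantile normalization (-0.23, adjusted p = 0.178), without the block for cell line (adjusted p = 0.121), with no filter on low values (adjusted p = 0.0784), with eBayes run without a trend (adjusted p = 0.0968), and without line #1 (-0.25, adjusted p = 0.169), line #5 (-0.42, adjusted p = 0.0654) or line #10 (-0.30, adjusted p = 0.162). Exons of Ezh2 overlap the opposite-strand gene Gm26625.

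Ezh1, the alternative catalytic subunit that is found in resting cells, was set beside it. Its levels were 657, 1005, 665 and 728 normalized counts in DMSO and 856, 1058, 915 and 914 in trametinib in lines #1, #3, #5 and #10. Ezh1 rose by 0.31 on the log2 scale (adjusted p = 0.0454), a call that was lost without the block for cell line, although the control value of line #3 lay above 3 of the treated values. Per kilobase, Ezh2 exceeded Ezh1 by 16.7, 7.80, 15.2 and 12.7 times in DMSO and by 8.06, 7.07, 9.91 and 7.02 times in trametinib. The change of Ezh2 lay 0.67 ± 0.39 (SD, n = 4) log2 units below that of Ezh1, in 4 of 4 lines (exact p = 0.13, 0.175 adjusted), with line #3 showing the least difference (-0.14).

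Among the other PRC2 genes, 7 of 11 tested were lower (63.6%, against 25.6% of all genes), 3 higher (27.3%, the same as over all genes) and 1 was not called, with a median log2 change of -0.48. The 3 called higher, Ezh1, Phf1 and Jarid2, were not called without the block for cell line, and 1 gene of the list was called higher without line #5 or line #10. The core subunits Suz12 and Eed, without which PRC2 has no activity, fell by 0.91 (adjusted p = 0.00132) and 0.89 (adjusted p = 0.00122). Elsewhere in the list Phf19 fell by 1.74 (adjusted p = 0.001), Epop by 1.47 (adjusted p = 0.000413) and the histone chaperone Rbbp7 by 0.93 (adjusted p = 0.000847), whereas Phf1 rose by 0.51 (adjusted p = 0.013) and Jarid2 by 0.44 (adjusted p = 0.0147). Phf19 and Phf1 are alternative Polycomb-like subunits that guide the complex to chromatin. Phf19 went from 412, 598, 315 and 544 normalized counts in DMSO to 142, 190, 125 and 98.1 in trametinib in lines #1, #3, #5 and #10, with no overlap.

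The PRC1 genes, whose products bind H3K27 methylation or ubiquitinate histone H2A, were called in both directions, at shares near those of all genes. Of 19 tested, 4 rose (21.05%, against 27.3% of all genes), 4 fell (21.05%, against 25.6%) and 11 were not called. The median log2 change was -0.08, over genes that went both ways. The number called higher was 1 without line #1 or line #5 and 2 without line #10. Phc3 rose by 0.82 and Phc1 by 0.41, while Phc2 fell by 0.95, Rybp by 0.65 and Pcgf6 by 0.62 on the log2 scale. The polyhomeotic genes Phc1 and Phc3 thus changed in the opposite direction to Phc2.

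Setdb1 and its recruiter Trim28 fell in all 4 lines. Setdb1 was measured at 5420, 4417, 4833 and 5181 normalized counts in DMSO-treated lines #1, #3, #5 and #10 and at 4001, 2799, 4008 and 3918 after trametinib. The groups did not overlap, and line #3 stood apart from the other treated lines. Setdb1 fell by 0.44 on the log2 scale (SE 0.09, adjusted p = 0.0068; adjusted p = 0.057 without the block for cell line). Its exons overlap those of Cers2 and Gm37500 on the opposite strand.

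Trim28 was the most abundant of the 10 transcripts per kilobase under both treatments, with a mean of 5458 normalized counts per kilobase in DMSO and 3582 in trametinib. Its levels were 20731, 13945, 20019 and 16150 normalized counts in DMSO and 13367, 8706, 14008 and 10413 in trametinib in lines #1, #3, #5 and #10. The groups overlapped by a narrow margin, as treated line #5 lay just above control line #3. The changes of the lines were close together (-0.68 to -0.52), and Trim28 fell by 0.62 on the log2 scale (SE 0.08, adjusted p = 0.00133). It had the smallest spread of change over lines of the 10 genes, an SD of 0.07.

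The other H3K9 genes were lower or not called. Of 18 tested, 9 fell (50%, against 25.6% of all genes) and none rose (against 27.3%), with a median log2 change of -0.30. The heterochromatin methyltransferases Suv39h2 and Suv39h1 fell by 1.5 (adjusted p = 0.000753) and 1.21 (adjusted p = 0.00027), and Chaf1a, the large subunit of the replication-coupled chaperone CAF-1, by 1.32 (adjusted p = 0.00142) on the log2 scale. The euchromatic H3K9 methyltransferases Ehmt1 and Ehmt2 were not called, with log2 changes of 0.03 (adjusted p = 0.749) and -0.07 (adjusted p = 0.473). Suv39h1 fell by more than Setdb1 in 4 of 4 lines, by 0.77 ± 0.05 log2 units (SD, n = 4; exact p = 0.13, 0.175 adjusted over the 7 pairs). In each line Suv39h1 was measured at 6392, 5068, 4986 and 4450 normalized counts in DMSO and at 2691, 1945, 2470 and 1914 in trametinib. Its exons overlap the opposite-strand gene Gm14820.

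Of 12 genes tested for enzymes that remove these marks, the H3K9 and H3K27 demethylases, 8 rose (66.7%, against 27.3% of all genes), none fell (against 25.6%) and 4 were not called, with a median log2 change of 0.44. Kdm7a, which acts on H3K9me2 and H3K27me2, rose by 1.54 (adjusted p = 0.000745), and the H3K9me3 demethylases Kdm4b and Kdm4c by 1.10 (adjusted p = 0.00663) and 0.70 (adjusted p = 0.00217) on the log2 scale. Kdm7a was at 408, 274, 331 and 169 normalized counts in DMSO and at 833, 947, 895 and 646 in trametinib in lines #1, #3, #5 and #10. Every treated value exceeded every control value. Of the dedicated H3K27 demethylases, Kdm6b rose by 0.61 (adjusted p = 0.0087), and Kdm6a had a log2 change of 0.03 (adjusted p = 0.784).

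**Figure D4:**
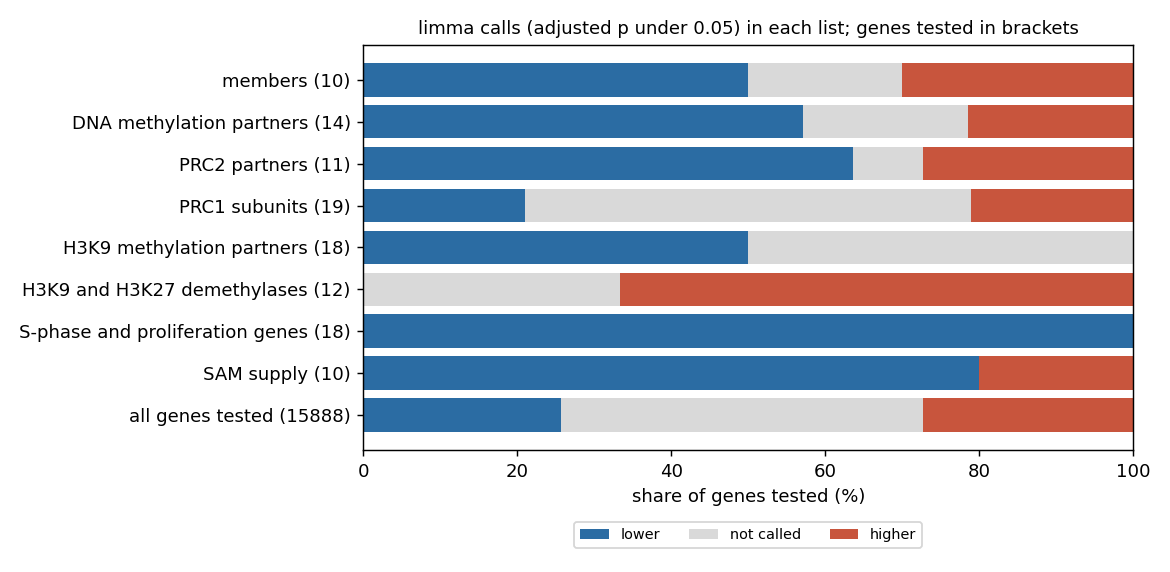
Share of genes (percent, horizontal axis from 0 to 100) called lower, higher or not called by limma at an adjusted p under 0.05 in each list, with the number tested in brackets. The H3K9 methylation list has no gene called higher and the demethylase list none called lower, and the bottom bar gives all 15888 genes tested (25.6% lower, 27.3% higher).

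Genes that supply S-adenosylmethionine (SAM), the methyl donor of all these methyltransferases, or clear its product were called in every case, 8 of 10 lower (against 25.6% of all genes) and 2 higher (20%, against 27.3%), with a median log2 change of -0.72. Without line #1, #5 or #10, 1 was called higher. The folate enzyme Shmt1 fell by 2.15, Ahcy, which hydrolyses the inhibitory product S-adenosylhomocysteine, by 1.58 and Mthfd1 by 1.31 on the log2 scale. Mat2b, the regulatory subunit of the SAM synthetase, rose by 0.30 (adjusted p = 0.0389). Shmt1 was at 2122, 3408, 2624 and 2840 normalized counts in DMSO and at 533, 649, 693 and 582 in trametinib in lines #1, #3, #5 and #10.

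Germline genes whose promoters are commonly kept silent by DNA methylation were for the most part low under both treatments. Of 16 in the table, 13 were below the filter and were not tested, and of the 3 tested, Tdrkh and Tdrd1 were not called. Brdt, a testis bromodomain gene, was at 7.07, 9.35, 2.0 and 17.7 normalized counts in DMSO and at 21.4, 23.2, 40.3 and 39.8 in trametinib in lines #1, #3, #5 and #10. With a mean of 9.03 in DMSO and 31.2 in trametinib, Brdt passed the filter through its trametinib values alone, so its call is not read as a result, and its control value in line #5 lay below the floor of 3 reads. Ddx4, a germ cell helicase below the filter that was picked once its values were known, was at 2.22, 0, 0 and 5.02 in DMSO and at 16.8, 5.88, 9.22 and 20.2 in trametinib. DNA methylation and histone marks themselves were not measured in these libraries.

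Among all genes tested, those whose levels followed each of the 10 most closely over the 8 libraries were listed as a description. The 8 points share 4 lines and 2 treatments, so a gene with a steady response to trametinib resembles many others. Uhrf1 was most like Tk1 (r = 0.998), Lsm11 (r = 0.996) and Cdc6 (r = 0.996), of which Tk1 and Cdc6 belong to the S-phase list. Dnmt1 was most like Ddx21 (r = 0.999), Senp1 (r = 0.999) and Mthfd1l (r = 0.998). Dnmt3a was most like Ift122 (r = 0.995), Hacd4 (r = 0.992) and A330074K22Rik (r = 0.992), and Tet2 most like Tmem181a, Stx16 and F11r (r = 0.985 to 0.986). For Setdb1 they were Psmc6, Tnfrsf22 and Cks1b (r = 0.991 to 0.994), for Trim28 Wrb, Eif4g1 and Stk11 (r = 0.995 to 0.997) and for Tet3 Cntnap1, Sema3b and AC155941.2 (r = 0.976 to 0.993). The least close were those of Ezh2, namely Gm28119, A530084C06Rik and Gm22748 (r = 0.947 to 0.968), of Tet1, namely Plat, Tmem171 and Dock9 (r = 0.942 to 0.963), and of Dnmt3b, namely Romo1, Sh3gl1 and 1110008P14Rik (r = 0.930 to 0.950).

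Ordered by mean level per kilobase in DMSO, the 10 genes ran from Trim28 (5458 ± 992) through Uhrf1 (2659 ± 208), Ezh2 (2278 ± 321), Dnmt1 (2057 ± 368), Setdb1 (1065 ± 93.7), Tet3 (524 ± 101), Tet2 (122 ± 45.4), Dnmt3a (121 ± 29.1) and Dnmt3b (19.3 ± 6.94) to Tet1 (2.60 ± 2.0 normalized counts per kilobase, SD, n = 4 throughout). Neighbours whose values overlapped in this order were Uhrf1 with Ezh2, Ezh2 with Dnmt1, and Tet2 with Dnmt3a. In trametinib the order became Trim28 (3582 ± 769), Ezh2 (1780 ± 275), Dnmt1 (856 ± 355), Setdb1 (790 ± 127), Uhrf1 (782 ± 302), Tet3 (673 ± 166), Dnmt3a (233 ± 24.4), Tet2 (232 ± 130), Dnmt3b (21.3 ± 7.90) and Tet1 (0.899 ± 0.523). Uhrf1 thus moved from the second place to the fifth, where its values overlapped those of Dnmt1, Setdb1 and Tet3. Those of Dnmt3a and Tet2 overlapped as well.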

How the data were processed

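RNA-seq of 8 libraries was used, 1 per line and treatment, from stranded polyA mRNA libraries. Per the submitters' processing notes, CASAVA 2.17, Salmon 0.12, DESeq2 1.18 and the build mm10 were used; their order, the annotation and the use of strand are not given in the sources used here. The values deposited by the authors are normalized counts per gene, a signal scaled between libraries. Only 48.3% to 67.7% of values under 20 reads lay within 0.05 of a whole multiple of 1 read, so whole reads were not recovered and no count model was run. Intervals and the floor cover counting error or the spread between lines only.

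Values were transformed as log2(value + 1), which understates changes of low genes. They were tested with limma 3.58.1 (lmFit, eBayes with trend) in R 4.3.3 with the cell line as a block, on genes with a mean of at least 10, with Benjamini-Hochberg adjustment over all 15888 genes and a threshold of 0.05. Both libraries of a number come from the same cell line, and their deviations from the group means correlated at 0.631 to 0.724 across genes. Pairs of genes and changes relative to the S-phase list were compared with an exact two-sided sign-flip permutation test over the 4 lines. Members and gene lists were chosen with earlier results of these data known. Named were all 10 genes, the 3 largest called rises and falls of each list, the genes of the pairs and the 3 genes most like each in pattern. Some items that this rule or the labels name are not reported here. Suz12, Eed, Ehmt1, Ehmt2, Kdm6a, Kdm6b, Dnmt3l, the tested germline genes, Ddx4 and the markers Cdh1 and Epcam were named besides, for their role, after their values were seen. Positions are from GENCODE M21 (GRCm38) and promoter windows from RefSeq (GRCm38.p6). Python 3.11.15, numpy 2.4.6, pandas 2.3.3 and matplotlib 3.10.9 served for tables and plots. Alternatives covered the pseudocount (0.1 and 5), the scaling, the filter (none and 50), the block, the eBayes setting and leaving out each line.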

Additional observations from a re-analysis of the deposited data

Results flagged for a closer look

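Within groups of 4, a library or line was marked where its gap to the nearest other value took up nearly the whole range of the group (Dixon's test at 95%). Of 30 groups tested over the 10 genes, 8 were marked, where chance alone gives about 1 in 20 groups, or 1.5. Line #3 was the marked line in 6 of them. It had the highest Tet2 level in DMSO (1740 normalized counts, others 865 to 955) and in trametinib (3906, others 1356 to 1676), and the lowest Setdb1 level in trametinib (2799, others 3918 to 4008). It also had the highest log2 change of Dnmt3a (1.42, others 0.81 to 0.86), of Tet3 (0.48, others 0.29 to 0.32) and of Tet1 (2.18, others -2.39 to -2.01). Line #5 had the highest Dnmt3a level in trametinib (2611, others 2129 to 2151), and line #1 the lowest Uhrf1 level in DMSO (8418, others 9836 to 9955).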

How the results depend on the processing

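Of 139 refits of the log2 changes of the 10 genes, 125 kept their direction and side of the threshold. The 2 that turned were both of Dnmt3b, after quantile normalization (-0.35) and on leaving out line #1 (-0.16, with 0.33 the highest on leaving out another line). Tet1 could not be tested with the filter at a mean of 50. Without the replicate block (the paired cell line), calls fell to 3 lower and 1 higher among the 10 genes, to 5 lower DNA methylation genes, 0 higher PRC2 genes, 2 lower and 1 higher PRC1 genes, 5 higher demethylases, and 5 lower and 1 higher SAM supply genes, and over all genes to 2347 lower and 2205 higher. Without the eBayes trend, 1 PRC1 and 1 SAM supply gene were called higher, and with no filter 1 SAM supply gene. Germline genes called higher numbered 2 with equal totals or no filter and 0 after quantile normalization or the filter at 50. Leaving out 1 line gave 4 to 6 of the 10 genes lower and 3 higher, with 1 to 3 PRC2, 1 to 4 PRC1 and 1 to 2 SAM supply genes higher. With equal totals, 3284 genes were lower and 5315 higher, against 4075 and 4341. All 52 refits of pairs and S-phase comparisons kept their direction. Their side of the threshold could not change, because the smallest p that 4 lines allow is 0.13, so it says nothing of stability. The causes of these differences were not tested. With 4 lines, 1 time and no dose series, the precision of small changes is limited. Tet1 also had only about 4 reads in the control of line #3 and in treated line #10.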
